A study of Mus musculus with 18 samples.

Results

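The 8 genes described here encode the Fos proteins (Fos, Fosb, Fosl1, Fosl2), the Jun proteins (Jun, Junb, Jund) and Atf3, the core proteins of the AP-1 transcription factors. They were taken by symbol, as every probe set of the array whose single gene symbol was among the 8, and all 8 were found among 17020 named genes. The cells were macrophages that grew from mouse bone marrow under the growth factor CSF1. The marrow donors were 3 male C57BL/6 mice, 10 weeks old, and culture took 1 week in medium with 10% fetal calf serum and rhCSF1, the recombinant human protein, at 10000 U/ml before replating. Cells were harvested at baseline and after 1, 2, 4, 10 and 24 h with the synthetic glucocorticoid dexamethasone at 100 nM, with 3 arrays for each of these 6 groups and 18 arrays altogether. No vehicle group at the later times was analysed here, so time in culture and time with dexamethasone cannot be told apart, and the labels do not say which animal gave which array.

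AP-1 is a dimer of basic leucine zipper (bZIP) proteins that binds short DNA elements in promoters and enhancers. Jun proteins pair with themselves, with Fos proteins or with ATF proteins, whereas Fos proteins need a partner such as Jun. Growth factors and bacterial products induce several of these genes within minutes through MAP kinases, which makes Fos and Jun the textbook immediate-early genes. The ligand-bound glucocorticoid receptor is known to interfere with AP-1 at inflammatory genes, in part by contact between the proteins. Atf3 is known in macrophages as a repressor of cytokine genes that is itself induced by Toll-like receptor signals.

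The promoters of the 4 genes called against baseline at any time are shown because AP-1 and cyclic AMP response elements close to the start are known to control several of these genes. RefSeq (build GRCm38.p6) gave a window of 250 bases before to 50 bases after the start for 7 of the 8 genes. The Fos window lies at chr12:85473640-85473939 (plus strand), Jun at chr4:95052173-95052472 (minus strand), Jund at chr8:70697489-70697788 (plus strand) and Atf3 at chr1:191183284-191183583 (minus strand). Capitals mark matches to the motifs named after the sequences, other than the NF-kappaB pattern.
Fos: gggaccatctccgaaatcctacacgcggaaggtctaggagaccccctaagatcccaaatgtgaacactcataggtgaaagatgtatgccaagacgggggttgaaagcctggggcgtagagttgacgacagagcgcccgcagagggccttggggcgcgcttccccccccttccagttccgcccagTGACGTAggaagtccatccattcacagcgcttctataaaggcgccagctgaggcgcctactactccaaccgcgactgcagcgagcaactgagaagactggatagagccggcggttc
Jun: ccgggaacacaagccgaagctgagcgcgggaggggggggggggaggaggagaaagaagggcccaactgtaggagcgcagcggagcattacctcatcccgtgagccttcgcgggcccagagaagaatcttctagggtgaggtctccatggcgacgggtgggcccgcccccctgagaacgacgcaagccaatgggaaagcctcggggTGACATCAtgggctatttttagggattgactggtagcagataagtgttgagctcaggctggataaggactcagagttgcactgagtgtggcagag
Jund: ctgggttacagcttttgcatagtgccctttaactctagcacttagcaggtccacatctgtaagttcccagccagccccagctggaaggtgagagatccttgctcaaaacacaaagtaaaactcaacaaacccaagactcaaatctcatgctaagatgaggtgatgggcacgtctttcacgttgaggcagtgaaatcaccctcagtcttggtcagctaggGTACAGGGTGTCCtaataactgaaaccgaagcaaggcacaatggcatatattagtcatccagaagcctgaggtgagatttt
Atf3: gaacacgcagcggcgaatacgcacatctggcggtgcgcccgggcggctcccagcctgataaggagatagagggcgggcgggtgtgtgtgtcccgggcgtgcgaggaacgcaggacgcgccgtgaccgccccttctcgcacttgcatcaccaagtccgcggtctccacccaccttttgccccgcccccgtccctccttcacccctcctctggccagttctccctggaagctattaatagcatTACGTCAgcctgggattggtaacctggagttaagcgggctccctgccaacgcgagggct
The Jun window held TGACATCA, the AP-1 variant known from this promoter, at -45 to -38 from the annotated start, and 3.62% of the 32851 windows in the table held it on either strand. The Fos window held TGACGTA at -66 to -60 and the Atf3 window held its reverse complement at -9 to -3. That shortened form of the cyclic AMP response element occurred in 1.27% of windows and was chosen after the sequences had been read. In the Jund window a loose form of the glucocorticoid response element matched, G and any base, then ACA, 3 bases of any kind, TGT, any base and C, at -31 to -19, and 0.475% of all windows held a match. G and C made up 46.7% of the Jund window, with 3 CG pairs, against 58.7% to 68.3% and 15 to 32 pairs in the other windows. Whether this window holds the main start of Jund was not tested. None of the 7 windows held TGAGTCA (in 5.2% of windows), TGACGTCA (in 1.79%) or a CArG box (in 1.63%). The loose NF-kappaB pattern, GGG and CC with 5 bases of any kind between them, was in 5 of the 7 windows and in 50.8% of all. Each of these windows held 1 capitalised match, so none overlapped. A match is only a run of letters, and its absence says that the letters are not in this window.

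All values below are log2 of the deposited intensity, which was normalized between arrays by the authors, and each gene is given by its brightest probe set. Differences were tested with limma over all 13210 genes that passed a filter on low values, a gene being kept if 3 arrays reached their own 40th percentile. Adjusted p-values are Benjamini-Hochberg values over all these genes with a threshold of 0.05, and errors of changes are limma standard errors with 3 arrays in each group. Of the 8 genes 7 passed the filter and Fosb did not. Levels of different genes are not compared, since probe sets differ in brightness. As a check of the treatment, Tsc22d3, a standard glucocorticoid target, stood 1.80 ± 0.06 to 2.45 ± 0.06 log2 units above baseline at the 5 times. Within groups, pairs of arrays had correlations of 0.995 to 0.997. All 8 macrophage markers named on the array, Csf1r and Adgre1 among them, lay above background on every array. Background here is each array's own 95th percentile of 43 control probe sets, which averaged 3.86 log2 over the arrays. The filter, at 3.45 to 3.50 log2, lay below this average, and 68.6% to 80.9% of tested genes exceeded background on an array. Shares of all tested genes given below thus include genes near background. None of 6 fibroblast markers exceeded background on any array. Of 5 T cell markers 2 lay above it on every array, and Cd3g and Cd3d on none. Of 4 B cell markers named on the array 1 lay above it on every array, and Ms4a1 on none. Of 3 dendritic cell markers named on the array 0 lay above it on every array, and Zbtb46 and Xcr1 on none. Of the neutrophil list 6 of 8 markers were named on the array, 2 of them above background on every array and Elane on none. Their summed intensity was 185 to 271 at baseline, 209 to 229 at 1 h, 224 to 244 at 2 h, 178 to 227 at 4 h, 145 to 201 at 10 h and 121 to 144 at 24 h. The part of this in the changes reported below was not tested. In pooled RNA, fewer cells of a type and less RNA per cell cannot be told apart. Control probe sets of Gapdh and Actb at the 3' end, minus those at the 5' end, give a sign of RNA quality. For Gapdh this difference was 0.02 to 0.08 log2 on baseline arrays and 0.06 to 0.28 on treated arrays. For Actb it was 0.36 to 0.40 on baseline arrays and 0.37 to 0.46 on treated arrays. The part of RNA quality in any change from baseline was not tested.

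Among the Fos genes, Fos rose at every time. Fos, which encodes the founding partner of Jun in AP-1 (probe set 1423100_PM_at), read 8.35, 8.41 and 8.55 log2 at baseline and 9.73, 9.71 and 9.72 after 1 h. After 2 h the arrays read 9.68, 9.52 and 9.65, and after 4 h 9.62, 9.99 and 9.87. All 9 early treated arrays thus lay above all 3 baseline arrays, and the 1 h arrays differed from each other by less than those of any other group. After 10 h the values were 9.28, 9.68 and 9.47, and after 24 h 8.72, 9.11 and 8.97. The 24 h arrays also lay above baseline, although below every 10 h array.

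The change of Fos from baseline was 1.28 ± 0.10 log2 at 1 h (adjusted p 5.66e-09), a 2.44-fold rise. It stood at 1.18 ± 0.10 at 2 h (adjusted p 5.51e-09) and at 1.39 ± 0.10 at 4 h (adjusted p 1.26e-10), the highest mean of the series at 2.63-fold. At 10 h the rise was 1.04 ± 0.10 (adjusted p 1.76e-08) and at 24 h 0.50 ± 0.10 (adjusted p 0.000774), or 1.41-fold. Of the 7 tested genes Fos was the only one called at 1 h, where 0.386% of all tested genes were called (51 genes, and 93 with the replicate number as a block). Its F statistic over the 5 times lay at the 99.3rd percentile of all genes, with an adjusted p of 1.36e-10.

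The decline of Fos was itself measured. Between 10 h and 24 h Fos fell by 0.55 ± 0.10 log2 units (adjusted p 0.00209), and it was the only member called in that step, in which 2.16% of all genes were called. From 4 h to 10 h it fell by 0.35 ± 0.10 (adjusted p 0.0413), again as the only member called, against 4.17% of all genes. The 4 h and 10 h arrays overlapped in range, and this step lay close to the threshold. Its adjusted p was 0.23 when 4 h replicate 2 was left out and also when 10 h replicate 1 was. With 4 h replicate 3 left out it was 0.119, and with 10 h replicate 3 left out 0.101. Leaving out 1 h replicate 1, 2 or 3 gave 0.0522, 0.0511 or 0.0507. The steps from 1 h to 2 h (-0.10 ± 0.10) and from 2 h to 4 h (0.21 ± 0.10) did not pass, with adjusted p 0.973 and 0.411. In order of means, Fos ran from 4 h through 1 h, 2 h, 10 h and 24 h down to baseline. The 4 h arrays overlapped the 1 h arrays and the 2 h arrays overlapped the 10 h arrays, whereas 24 h and baseline each stood apart from the group above. Fos has a single named probe set, so no second probe set could be set beside it.

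**Figure D1:**
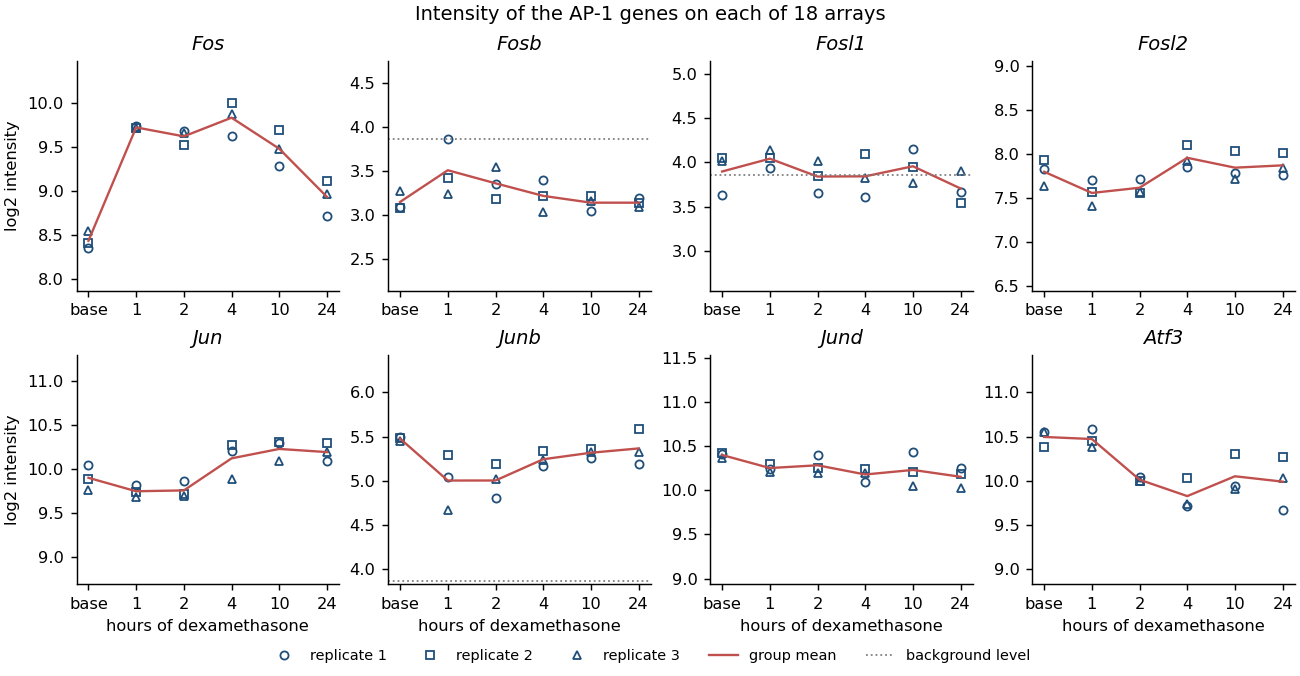
Log2 intensity (y axis, each panel spanning the same range) of the 8 genes on every array, by hours of dexamethasone with baseline at the left; symbols are replicates, red lines join group means and the dotted line is the background level averaged over arrays. Fos lies at 8.35 to 8.55 at baseline and at 9.71 to 9.73 after 1 h, while Atf3 lies at 10.39 to 10.55 at baseline and at 9.99 to 10.05 after 2 h.

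Neither Fosl2 nor Fosl1 was called at any time against baseline. Fosl2, which encodes Fra-2 (probe set 1437247_PM_at), read 7.83, 7.93 and 7.64 at baseline, 7.70, 7.57 and 7.41 at 1 h, and 7.72, 7.56 and 7.57 at 2 h. It read 7.85, 8.10 and 7.92 at 4 h, 7.78, 8.03 and 7.72 at 10 h, and 7.76, 8.01 and 7.84 at 24 h. Each treated group overlapped the baseline arrays. Its changes from baseline ran from -0.24 ± 0.10 at 1 h (unadjusted p 0.0263, adjusted p 0.96) to 0.16 ± 0.10 at 4 h (adjusted p 0.454). Over the 5 times together Fosl2 passed the F test with an adjusted p of 0.029, a test that 17.4% of all genes passed. The 4 h arrays lay above all 2 h arrays, a step of 0.34 ± 0.10 with an adjusted p of 0.0993.

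Fosl1, which encodes Fra-1, lay near background. Its brightest probe set (1417487_PM_at) ranged from 3.54 to 4.15 log2 and lay above the array's own background on 8 of 18 arrays. These were 2 at baseline, 3 at 1 h, 2 at 2 h, 0 at 4 h, 1 at 10 h and 0 at 24 h. The background level differed between groups too. At 2 h and 4 h the mean of Fosl1 was 3.84 log2, which lay 0.05 and -0.18 log2 from background. Changes of Fosl1 ran from -0.19 ± 0.15 at 24 h to 0.15 ± 0.15 at 1 h, with adjusted p from 0.484 to 0.999, and all groups overlapped baseline. Fosb was listed at 3.09, 3.08 and 3.28 at baseline and at 3.86, 3.42 and 3.24 at 1 h, and lay above the array's own background on 1 array, 1 h replicate 1. It reached the filter on 2 of 18 arrays and was not tested, and its 1 h arrays overlapped those at baseline. With so little signal over background, a fall of either gene was not detectable here, and a small rise may have been missed. For Fosl1 at 1 h the 95% interval of the change, not adjusted for the number of genes, was -0.17 to 0.47 log2.

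Changes of the Jun genes were smaller than those of Fos. Jun, which pairs with itself as well as with Fos and has 2 probe sets above background on every array, read 10.05, 9.89 and 9.77 at baseline, 9.82, 9.74 and 9.68 at 1 h, and 9.87, 9.72 and 9.69 at 2 h (probe set 1417409_PM_at). It read 10.20, 10.28 and 9.89 at 4 h, 10.29, 10.31 and 10.09 at 10 h, and 10.09, 10.30 and 10.19 at 24 h. The early groups overlapped baseline, and the 10 h and 24 h arrays lay above it.

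The change of Jun from baseline was -0.15 ± 0.09 at 1 h and -0.14 ± 0.09 at 2 h (adjusted p 0.999 and 0.68), and 0.22 ± 0.09 at 4 h (adjusted p 0.147). Blocking on the replicate number, the 4 h change of Jun passed, at 0.22 ± 0.06 (adjusted p 0.0203). Jun rose at 10 h by 0.33 ± 0.09 (adjusted p 0.0105), a 1.25-fold change, and at 24 h by 0.29 ± 0.09 (adjusted p 0.0252). The step from 2 h to 4 h was 0.36 ± 0.09 (adjusted p 0.0264), in which Jun was the only member called against 1.9% of all genes. The second probe set (1448694_PM_at) stood at 0.36 ± 0.09 at 10 h and at 0.45 ± 0.09 at 24 h when every probe set was tested, with adjusted p 0.00593 and 0.000726, and its 2 h to 4 h step missed the threshold at 0.0871.

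These Jun calls on the brightest probe set were small and near the threshold. At 10 h the adjusted p was 0.0794 without baseline replicate 3, 0.0555 without 10 h replicate 2 and 0.0526 without an intensity trend. At 24 h it was 0.0696 and 0.146 without baseline replicates 2 and 3, 0.123 and 0.0684 without 24 h replicates 2 and 3, and 0.0912 without the trend. For the step it was 0.114 and 0.103 without 2 h replicates 2 and 3, and 0.132 and 0.203 without 4 h replicates 1 and 2.

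**Figure D2:**
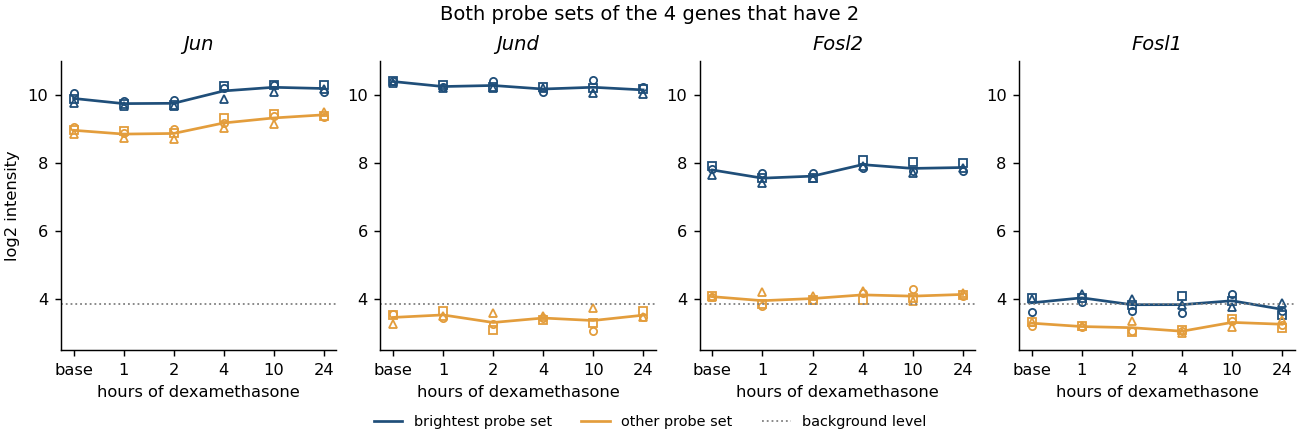
Log2 intensity (y axis) of both probe sets of the 4 genes that have 2, by hours of dexamethasone with baseline at the left; symbols are arrays, lines join group means and the dotted line is the background level averaged over arrays. The 2 probe sets of Jun both lie far above background and are highest at 10 h or 24 h, while the other probe sets of Jund and Fosl1 lie below it on all 18 arrays.

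Junb, a Jun protein that often restrains Jun, was dim (probe set 1415899_PM_at). It read 5.50, 5.48 and 5.45 at baseline, 5.05, 5.29 and 4.67 at 1 h, and 4.80, 5.19 and 5.01 at 2 h. At 4 h it read 5.16, 5.33 and 5.23, at 10 h 5.26, 5.36 and 5.33, and at 24 h 5.19, 5.58 and 5.32. The arrays at 1, 2, 4 and 10 h lay below all 3 baseline arrays, which these comparisons share and which lay close together (SD 0.02 log2). The 24 h arrays overlapped baseline. The changes were -0.47 ± 0.15 at 1 h and -0.47 ± 0.15 at 2 h, and neither passed, with adjusted p 0.514 and 0.152. Later changes ran from -0.23 to -0.11 log2 without a call (adjusted p 0.465 to 0.723), and the F test gave an adjusted p of 0.101. The 95% interval of the difference was -0.79 to -0.16 log2 at 2 h and was not adjusted for the number of genes.

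Jund, the Jun protein that resting cells make constantly, was bright and narrow in range (probe set 1449117_PM_at). It read 10.41, 10.42 and 10.36 at baseline, 10.24, 10.30 and 10.21 at 1 h, and 10.40, 10.25 and 10.20 at 2 h. It read 10.10, 10.25 and 10.19 at 4 h, 10.44, 10.20 and 10.05 at 10 h, and 10.25, 10.18 and 10.03 at 24 h. The 1 h, 4 h and 24 h arrays lay below baseline, while the 2 h and 10 h arrays overlapped it. Jund fell at 24 h by 0.25 ± 0.07 log2 (adjusted p 0.0271), to 0.843 of its baseline level. Its other changes ran from -0.22 ± 0.07 at 4 h (adjusted p 0.0752) to -0.12 ± 0.07 at 2 h (adjusted p 0.711), and over the series the F test gave 0.149. Blocking on the replicate number, the 4 h change of Jund passed, at -0.22 ± 0.06 (adjusted p 0.012). The 24 h adjusted p was 0.0661 and 0.0813 without baseline replicates 1 and 2, 0.169 without 24 h replicate 3 and 0.0965 without the intensity trend. The other probe set of Jund (1440265_PM_at), at 3.08 to 3.74 log2 and thus below background throughout, stood at 0.07 ± 0.15 at 24 h.

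Atf3, the repressor, had the largest called falls from baseline among the members, all from 2 h on. It read 10.55, 10.39 and 10.55 at baseline, 10.58, 10.45 and 10.38 at 1 h, and 10.05, 9.99 and 9.99 at 2 h (probe set 1449363_PM_at). After 4 h the values were 9.72, 10.03 and 9.73, after 10 h 9.94, 10.30 and 9.91, and after 24 h 9.67, 10.26 and 10.03. The 1 h arrays overlapped baseline, and every array from 2 h on lay below all baseline arrays. From 4 h on, replicate 2 was the highest array of its group. The same held for Fos, Fosl2, Jun and Junb, but not at each of these times for Fosb, Fosl1 and Jund.

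At 1 h Atf3 stood at -0.02 ± 0.11 log2 (adjusted p 0.999). At 2 h it fell by 0.48 ± 0.11 log2 (adjusted p 0.0113) and fell by 0.67 ± 0.11 at 4 h (adjusted p 0.000143), which left 0.628 of the baseline level. It fell by 0.45 ± 0.11 at 10 h (adjusted p 0.00619) and fell by 0.51 ± 0.11 at 24 h (adjusted p 0.00212). The step from 1 h to 2 h was -0.46 ± 0.11 (adjusted p 0.0329), in which Atf3 was the only member called against 1.12% of all genes. Steps after 2 h did not pass, with adjusted p from 0.325 to 0.895. In the order of means, baseline and 1 h came first and overlapped, and the 4 later groups stood apart from them and overlapped their neighbours in the order.

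The 4 h, 10 h and 24 h calls of Atf3 held without any single array. The 2 h call was lost without baseline replicate 1 (adjusted p 0.0599), baseline replicate 3 (0.0655) or 2 h replicate 3 (0.0502), and without the intensity trend (0.107). The 1 h to 2 h step lost its call without any 1 of the 6 arrays of those groups, with adjusted p 0.0594 to 0.212. Atf3 has a single named probe set.

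**Figure D3:**
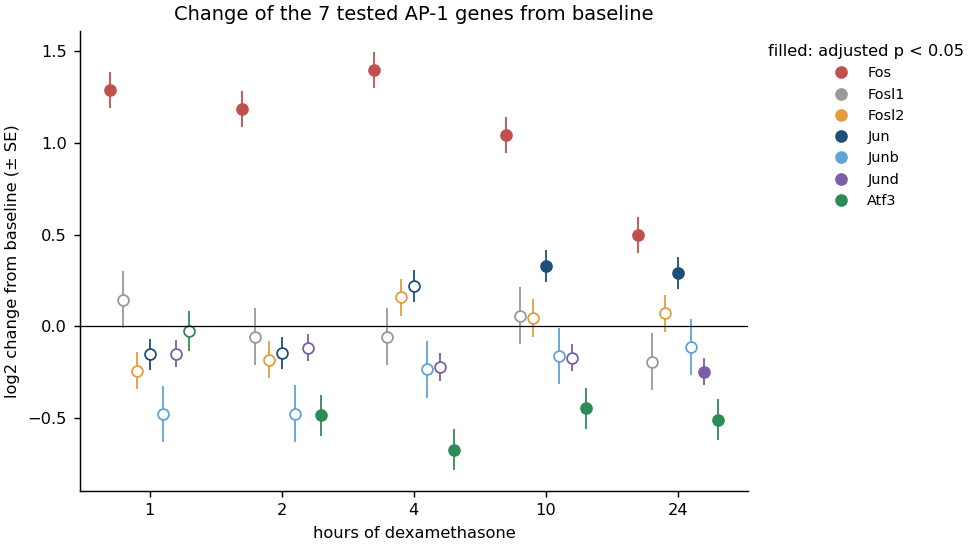
Log2 change from baseline (y axis, bars are limma standard errors, 3 arrays a group) of the 7 tested genes at 1, 2, 4, 10 and 24 h of dexamethasone (x axis); filled points passed an adjusted p of 0.05. Fos stands at 1.28, 1.18, 1.39, 1.04 and 0.50, Atf3 is filled and negative from 2 h on, and Jun is filled at 10 h and 24 h.

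Across the 7 tested genes the calls were of mixed direction. At 1 h 1 member was higher and 0 lower, where 0.303% of all tested genes were higher and 0.0833% lower. At 2 h 1 was higher and 1 lower, against 2.14% of all genes called, 1.57% higher and 0.575% lower. At 4 h again 1 was higher and 1 lower, against 7.51% called, 4.49% higher and 3.02% lower. With the replicate number as a block, 4 members were called at 4 h, with Jun higher and Jund lower in addition, and 1397 against 992 of all genes. At 10 h 2 were higher and 1 lower, against 14.4% called, 8.27% higher and 6.15% lower. At 24 h 2 were higher and 2 lower, against 12.7% called, 7.37% higher and 5.34% lower. Over the series 4 of the 7 passed the F test, against 17.4% of all genes. The median change of the 7 genes was -0.15, -0.14, -0.05, 0.05 and -0.11 log2 at 1, 2, 4, 10 and 24 h, and that of all tested genes was 0.0020 to 0.013 log2 at these times. The higher genes were Fos at all times and Jun at 10 h and 24 h, and the lower ones were Atf3 from 2 h and Jund at 24 h. The comparisons with baseline share the same 3 baseline arrays.

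The genes whose values were most like those of each called member over the 18 arrays are given as a description, since arrays of a group share their treatment and culture time. Nearest to Fos were Sgk1, a kinase gene and known glucocorticoid target (Pearson r 0.92, Spearman rho 0.82), Dusp1, whose phosphatase inactivates MAP kinases (0.92 and 0.93), and Otud1, a deubiquitinase gene (0.92 and 0.87). Dusp1 stood at 3.36 log2 at 1 h and 2.29 at 24 h, and Sgk1 at 0.88 and 0.56. Otud1 stood at 0.79 at 1 h and at 0.28 at 24 h, where it was not called (adjusted p 0.0891). Nearest to Atf3 were Tec, which encodes a tyrosine kinase (0.93 and 0.96), the lipid phosphatase gene Plpp3 (0.90 and 0.93) and S1pr2, a receptor for sphingosine 1-phosphate (0.89 and 0.92). All 3 were at -0.07 to -0.21 log2 at 1 h without a call and were called lower at 4 h, by 0.54 to 0.93.

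Jun was most like Sertad3 (0.93 and 0.92), Dock10 (0.91 and 0.90) and Ramac (0.91 and 0.83). Dock10 stood at -0.34 log2 at 1 h and at 0.91 at 10 h. Nearest to Jund were Pvr (0.88 and 0.81), Slc48a1, which encodes a haem transporter (0.83 and 0.73), and Purb (0.82 and 0.84). Pvr was called lower at 4 h at -0.56 log2, and Purb at 24 h at -0.28.

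**Figure D4:**
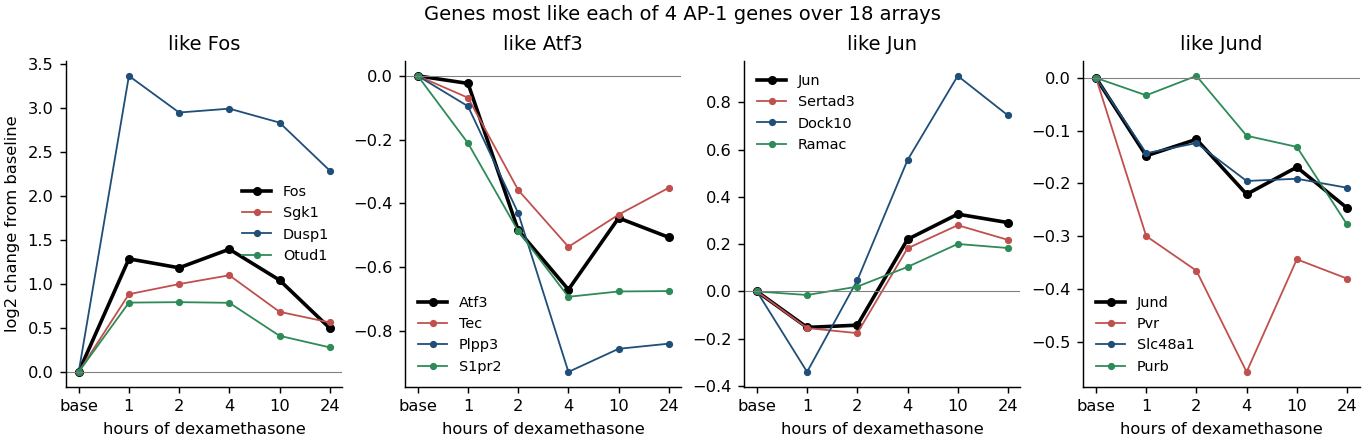
Mean log2 change from baseline (y axis) of Fos, Atf3, Jun and Jund (black) and of the 3 genes with the highest Pearson correlation to each over the 18 arrays (colours), by hours of dexamethasone with baseline at the left. Y axes differ between panels; Dusp1 reaches 3.36 at 1 h where Fos stands at 1.28.

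Other genes of the pathway were followed in 6 lists, all chosen with earlier results of these data known. Their shares called are thus not independent evidence. The first list held bZIP proteins that pair with Fos, Jun or each other, and 20 of its 21 genes were tested. At 1 h 2 were higher and 0 lower, at 2 h 3 and 1, at 4 h 3 and 3, and at 10 h and 24 h 4 and 2. The percentages called, 10%, 20%, 30%, 30% and 30%, stood beside the 0.386%, 2.14%, 7.51%, 14.4% and 12.7% of all genes. Its median change lay between -0.03 and 0.07 log2. Jdp2, a repressor that binds Jun, rose by 0.70 ± 0.07 at 1 h (adjusted p 2.91e-07) and by 2.24 ± 0.07 at 24 h (adjusted p 1.15e-17). Nfil3, a bZIP repressor, rose by 0.85 ± 0.15 at 1 h and by 1.58 ± 0.15 at 4 h (adjusted p 2.69e-08). Maf, a macrophage factor that can pair with Fos and Jun, stood at 0.10 ± 0.07 at 1 h without a call and rose by 0.84 ± 0.07 at 4 h (adjusted p 3.88e-09).

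Of 23 genes of the MAP kinase cascade, the route by which Fos and Jun are induced and their proteins phosphorylated, 17 were tested. At 4 h 1 was higher (5.88%, against 7.51% of all genes). At 10 h 2 were higher and 2 lower (23.5%, against 14.4% of all genes), and at 24 h 3 were higher and 0 lower (17.6%, against 12.7%), shares not far from those of all genes. Mapk14, which encodes the alpha form of the stress kinase p38, rose by 0.34 ± 0.07 at 4 h (adjusted p 0.00159), and Map3k5 by 0.36 ± 0.09 at 24 h (adjusted p 0.00903). Rps6ka3, a kinase gene downstream of ERK, fell by 0.14 ± 0.05 at 10 h (adjusted p 0.038). Srf acts on the Fos serum response element. Of Srf and the cofactors listed with it 5 genes were tested, and 2 were called at 4 h (40%, against 7.51% of all genes). At 24 h 1 was called (20%, against 12.7%). Srf fell by 0.40 ± 0.12 at 4 h (adjusted p 0.0453) while its cofactor gene Mrtfa rose by 0.50 ± 0.08 (adjusted p 0.000164). Mrtfb fell by 0.32 ± 0.07 at 24 h (adjusted p 0.00225). Among 5 tested cofactors and ubiquitin ligases of AP-1, 1 was called at 10 h and 1 at 24 h, each 20% of the list, against 14.4% and 12.7% of all genes. Itch, a ligase for Jun proteins, rose by 0.33 ± 0.06 at 10 h (adjusted p 0.000416), and Fbxw7, also a Jun ligase, by 0.31 ± 0.09 at 24 h (adjusted p 0.028).

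The list of genes with described AP-1 sites moved mostly downward. Of 13 tested, 1 was lower at 1 h and 3 at 2 h, with 0 higher. At 4 h 1 was higher and 4 lower, at 10 h 1 and 8, and at 24 h 1 and 9. Its percentages called were 7.69%, 23.1%, 38.5%, 69.2% and 76.9%, beside the same shares of all genes as for the bZIP list, and its median change was -0.24 log2 at 4 h and -0.41 at 24 h. The list was chosen with earlier results for Plau, Mmp12, Tnf and Ccl2 in these data known, so its direction is not independent evidence. Tnf fell by 1.10 ± 0.10 on the log2 scale at 1 h, when Fos stood 1.28 above baseline, and it fell by 0.70 ± 0.10 at 24 h. Plau, the urokinase gene, stood at -0.23 ± 0.13 at 1 h and fell by 1.82 ± 0.13 at 24 h. Mmp12, the macrophage elastase gene, stood at -0.07 ± 0.12 at 4 h and fell by 2.38 ± 0.12 at 24 h. The gene of the list called higher was Hmox1, which encodes a haem-degrading enzyme, at 0.71 ± 0.10 at 10 h (adjusted p 1.92e-05), and it was chosen for naming after its value was seen.

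Among 11 tested immediate-early genes outside AP-1, which share the rapid induction of Fos and Jun, the calls also went both ways. At 1 h 1 was higher and 1 lower, at 2 h and 4 h 1 and 2, at 10 h 2 and 1, and at 24 h 1 and 3. The percentages called were 18.2% at 1 h, 27.3% at 2, 4 and 10 h and 36.4% at 24 h, beside 0.386%, 2.14%, 7.51%, 14.4% and 12.7% of all genes. The gene higher at every time was Dusp1. Ier3 fell by 0.95 ± 0.10 on the log2 scale at 1 h and stood at 0.14 ± 0.10 at 24 h (adjusted p 0.453), and Egr2, a zinc finger factor, stood at -0.67 ± 0.19 at 1 h and fell by 2.36 ± 0.19 at 2 h. This list too was chosen with results for Dusp1, Ier3 and Egr2 known.

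**Figure D5:**
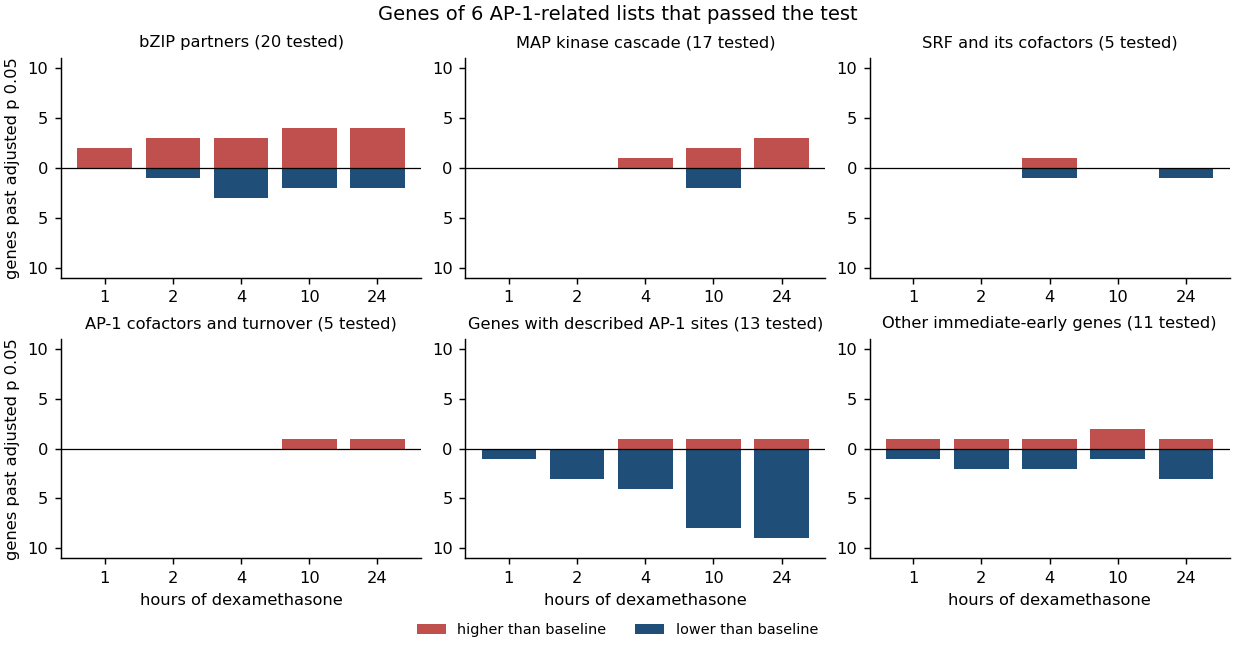
Number of genes (y axis) past an adjusted p of 0.05 in each of 6 lists at 1, 2, 4, 10 and 24 h of dexamethasone (x axis); red bars count genes higher than baseline and blue bars, drawn downward, genes lower. At 24 h 9 of the 13 tested genes with described AP-1 sites and 2 of 20 bZIP partners were lower, where 5.34% of all tested genes were. The lists were chosen with earlier results of these data known.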

How the data were processed

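Biotin-labelled RNA was hybridised to Affymetrix arrays, 1 sample each. The deposited table holds intensity values per probe set that the authors computed by RMA (affy, per the submitters' processing notes). Their range, 5.37 to 15224, shows a linear scale. RMA gives arrays the same distribution, which hides any shift common to most genes. All 18 columns were mapped by title and log2 was taken. In baseline replicate 1, 211 consecutive probe sets held an evenly stepped series; they were left out on all arrays and held 0 of the 8 genes. The brightest probe set stood for a gene. Gene names came from GEO's platform annotation, which can be old, with 28724 usable probe sets of 1 symbol. Tests used limma 3.58.1 in R 4.3.3 with 1 mean per group and an intensity trend, and were tested on simulated data. P-values measure the spread between arrays, which may be partly technical, and the number of arrays limits the precision. By the rule used here, arrays with the same replicate number deviated together from their group means if each of the 3 pairs correlated over 0.1. This held between baseline and 1 h (0.163 to 0.289), baseline and 4 h (0.138 to 0.240) and 1 h and 2 h (0.198 to 0.271). Each other comparison had at least 1 pair under 0.1, although over all comparisons the same number correlated best in 26 of 27 pairs. The main tests did not use this pairing, and the labels do not say what a number stands for. The members, the lists and the tests were chosen with earlier results of these data known. Named genes were the 8 members, the 3 genes most correlated with each called member, up to 3 called genes of each list by the F test, and Dusp1 and Tsc22d3 as treatment checks; the closing section gives the alternatives.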

Additional observations from a re-analysis of the deposited data

How the results depend on the processing

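The 5 rises of Fos and the falls of Atf3 at 4 h, 10 h and 24 h kept their direction and stayed past the threshold in all alternatives, apart from the one that required a log2 change of at least 0.5, by which Fos at 24 h (0.498) and Atf3 at 10 h (-0.446) were lost by construction. Counts of AP-1 genes changed depended more on the setting. With the replicate number as a block (replicate block), 4 AP-1 genes changed at 4 h in place of 2, with Jun and Jund added, and 2 from 2 h to 4 h in place of 1, with Fosl2 added. The block also called Jund at 10 h (-0.17, adjusted p 0.0449) and gave 6 members over the series in place of 4. It changed no other call of a member at a time or between times. Calls over all genes rose as well, to 1397 against 992 at 4 h, 2446 against 1905 at 10 h and 499 against 251 from 2 h to 4 h. The share of all genes that passed the F test with the block is not given here. Same-numbered arrays correlated over 0.1 in 20 of 27 pairs after group means were removed, and in 26 of 27 the same number correlated best, a hint of pairing in the data. In 6 of 9 comparisons at least 1 pair was under 0.1. Without an intensity trend the AP-1 genes changed numbered 1 at 2 h, 2 at 24 h and 0 in the steps from 1 h to 2 h, 2 h to 4 h and 4 h to 10 h. Over all genes that setting gave 248 against 283 at 2 h and 1411 against 1678 at 24 h. In those 3 steps it gave 105, 129 and 319 against 148, 251 and 551. With a log2 change of at least 0.5 they numbered 1 at 2 h, 10 h and 24 h, 0 in those 3 steps and 2 over the series. The mean of all probe sets gave 0 in those 3 steps, and the probe set of largest variance gave 0 from 2 h to 4 h and from 4 h to 10 h. With the stepped values kept, the steps from 1 h to 2 h and 4 h to 10 h gave 0, and testing every probe set or only the groups compared gave 0 from 4 h to 10 h. Leaving out single arrays gave 1 AP-1 gene at 1 h, 1 to 2 at 2 h, 2 to 3 at 4 h, 2 to 4 at 10 h, 2 to 4 at 24 h, 0 to 1 in each of the first 3 steps, 1 from 10 h to 24 h and 3 to 5 over the series. The count at 24 h was 2 without baseline replicate 2 or 24 h replicate 3. The cause was not tested, apart from the stricter threshold.

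With the dim probe set of Jund, which has the largest variance, Jund reversed to 0.0736 at 1 h and 0.0662 at 24 h. Single arrays left out turned uncalled values of Fosl1 at 2 h (-0.19 to 0.0357), 4 h (-0.19 to 0.0627) and 10 h (-0.0763 to 0.15), of Fosl2 at 10 h (-0.0468 to 0.11) and 24 h (-0.00573 to 0.14), and of Atf3 at 1 h (-0.0786 to 0.0218). A second quantile normalization called Junb lower at 2 h (-0.58, adjusted p 0.0394). Over all genes the counts called moved by over 1.5 times in some settings. The replicate block gave 93 against 51 at 1 h, 432 against 283 at 2 h, and 499 against 251, 943 against 551 and 547 against 285 in the last 3 steps. Without the trend those steps gave 129, 319 and 123, with the probe set of largest variance 142, 356 and 172, and with the mean of probe sets 157 in the first of them. With only the groups compared, 1254 against 1905 genes were called at 10 h, and 344 and 176 in the last 2 steps. With the 0.5 limit the counts were 156 at 2 h, 380 against 992 at 4 h, 663 at 10 h, 622 against 1678 at 24 h, and 73 against 148, 80, 160 and 86 in the 4 steps. Signal over background limits what can be said of Fosb and Fosl1. All settings were planned; none was added later.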
